A study of Rattus norvegicus with 33 samples.

Results

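Rat prostates exposed to estrogen after birth and to testosterone plus estradiol in adulthood were compared between postnatal day (PND) 145 and PND 100. The members are the 6 arrays whose titles name that combined treatment at those ages, 3 at PND 145 and 3 at PND 100, of 33 arrays in the series. All were male Sprague-Dawley (Hsd:SD) rats. On PND 1, 3 and 5 the pups were injected subcutaneously with 2.5 mg/kg of estradiol benzoate (EB), an estrogen ester that is released slowly. From PND 90 they carried 3 silastic implants, 2 with testosterone and 1 with estradiol (T+E). The group is written EBTE below. EBTE animals at PND 145 had carried the implants for 55 days and those at PND 100 for 10 days, and both ages share every agent, so the comparison is one of longer against shorter adult hormone exposure, with 45 more days of age. Other animals of the same ages received T+E after vehicle as pups (3 arrays at PND 145 and 3 at PND 100), EB with empty implants (4 and 3 arrays), or vehicle with empty implants as controls (3 and 3 arrays). Sample labels speak of the whole prostate and the series title of its dorsolateral lobes, so the lobes taken are unsure. Each group is labelled as drawn from 3 to 4 litters, with no litter named per sample, and p-values cover only the spread among the samples measured.

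Testosterone with estradiol is a standard way to induce prostatitis and epithelial lesions in the rat prostate, and early estrogen exposure makes that gland more prone to inflammation. Acute inflammation is led by neutrophils, drawn in by chemokines of the Cxcl family and by the cytokines Il1b and Il6. When it lasts, T cells, B cells and antibody-secreting plasma cells collect, and the cytokine lymphotoxin and the chemokines Cxcl13, Ccl19 and Ccl21 can organise them into lymphoid aggregates.

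Levels are log2 signals relative to each array's 75th percentile, which is 0. The 75th percentile itself was 2904 to 3764 at PND 145 and 1932 to 3245 at PND 100 before scaling, 64.8% to 68.7% of the 58717 spots at PND 145 and 61.7% to 67.4% at PND 100 were well above background, and 0 spots were saturated. Arrays correlated at 0.941 to 0.982 with each other at PND 145 and at 0.865 to 0.942 at PND 100. The PND 100 arrays, of which replicate 3 was the dimmest, were the less alike.

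The label of the tissue was checked against markers, and the 6 samples did not hold the same mixture of tissue. Products of the ventral lobe, such as the secretoglobins Scgb1d2 and Scgb1d4, averaged -1.47, -1.27 and 4.49 on PND 145 replicates 1, 2 and 3, against 3.84, 3.86 and 5.33 on the PND 100 replicates. Replicates 1 and 2 of PND 145 stood far below the other 4 arrays. The 15 skeletal muscle genes averaged -3.50, -3.07 and -0.69 at PND 145, against 3.95, 2.52 and -5.71 at PND 100, where replicates 1 and 2 were high and replicate 3 was the lowest of all 6. Seminal vesicle products averaged -1.30, -1.02 and -5.62 at PND 145 and -4.89, -4.04 and -5.01 at PND 100. Nerve and ganglion genes averaged -0.57, -1.44 and -4.48 at PND 145, against -2.05, -3.41 and -4.53 at PND 100. Spermatid and epididymis genes averaged -7.09, -6.24 and -7.32 at PND 145 and -6.45, -3.42 and -7.38 at PND 100. None of these lists had a member that passed the test with all 6 arrays. Without PND 145 replicate 3 the ventral products Scgb1d2, Scgb1d4 and Andpro were called as lower at PND 145, by -9.02, -8.83 and -9.69 (adjusted p = 0.0074, 0.012 and 0.026). Without PND 100 replicate 3 the muscle genes Acta1, Myh1, Myh2, Tnnc2 and Mb were called as lower. The dorsolateral products, among them the prostatic transglutaminase Tgm4 and the seminal protein Msmb, had a median difference of -0.01 between the ages. Results below are given with arrays left out and for the pair on slide 4, whose 2 arrays had similar levels of ventral products (4.49 at PND 145 and 5.33 at PND 100) but not of skeletal muscle genes (-0.69 and -5.71).

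After 55 days of implants the EBTE prostates had higher levels of genes of antibody-secreting cells, B cells, T cells, cytotoxic lymphocytes and interferon-induced genes than after 10 days. Of the neutrophil and acute mediator genes 0 passed as lower, which is near the 1.03% of all genes. In limma's fit over all 33 arrays, 801 of 23304 genes (3.44%) passed an adjusted p of 0.05 between the ages, 561 of them higher at PND 145 (2.41%) and 240 lower (1.03%). The median difference over all genes was -0.06. Lists with 0 calls below are near these shares. At an unadjusted p under 0.05 the count was 3881 (16.7%), 1924 higher (8.26%) and 1957 lower (8.4%). The 3 arrays of PND 145 lay wholly above or below the 3 of PND 100 for 3224 genes (13.8%), 1697 above (7.28%) and 1527 below (6.55%). The standard errors share the spread of all 10 groups of the series, and in a fit of these 2 groups alone 43 genes passed, 41 of them higher. Leaving out 1 array moved the count between 209 (without PND 145 replicate 2) and 1357 (without PND 100 replicate 2). Without PND 145 replicate 1 the count was 339. Of 75 called genes that the rule names, 33 kept their call whichever of the 6 arrays was left out.

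**Figure D1:**
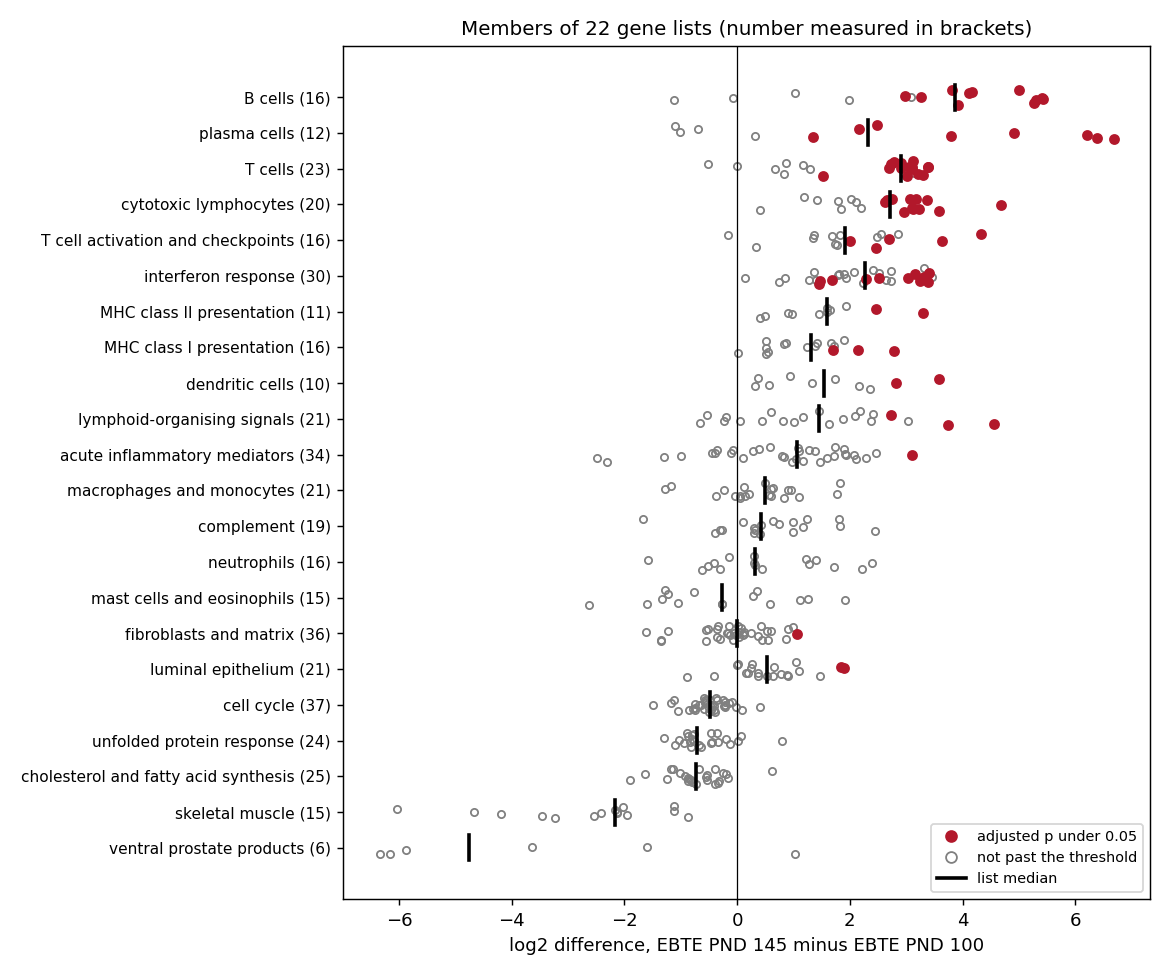
Difference in log2 level, EBTE PND 145 minus EBTE PND 100 (horizontal axis), for each measured member of 22 gene lists (rows). Red points passed the adjusted p of 0.05, grey rings did not and black bars are list medians. The B cell, plasma cell, T cell and cytotoxic lists hold most of the red points, and the neutrophil list holds none.

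The largest differences by size mixed lymphocyte genes with genes of other kinds. Among genes measurable at both ages, Clca1, a secreted regulator of epithelial mucus, stood at 4.64, 5.47 and 4.52 at PND 145, against -3.66, 3.42 and -6.93 at PND 100, a difference of 7.27 ± 1.62 (log2, SE, adjusted p = 0.011). The PND 100 arrays were spread over more than 10 log2 units, with replicate 2 near the PND 145 level, and the call was lost without PND 145 replicate 2 or PND 100 replicate 3. Lypd8l2, a member of the Ly6 family, had the same shape of pattern (difference 6.92 ± 1.91, adjusted p = 0.042), and its call was lost with slide as a block (adjusted p = 0.068). Fxyd4, a regulator of the sodium pump, rose by 5.51 ± 1.38 and Entpd8, an enzyme that breaks down extracellular nucleotides, by 5.36 ± 1.26. In both, PND 100 replicate 2 was the highest of its group.

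Cyp17a1, the steroid-making enzyme that leads to androgens, stood at -0.62, -0.61 and 0.44 at PND 145, against -7.22, -4.98 and -8.91 at PND 100 (difference 6.77 ± 1.01, adjusted p = 0.00029). The groups did not overlap, and the call held whichever of the 6 arrays was left out. Cyp17a1 was well above background on 1 of 3 PND 100 arrays, so the size of the difference is in part at background.

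Of 12 measured genes of plasma cells, 8 rose, against 2.41% of all genes, and 0 fell. The median difference was 2.32 against -0.06 over all genes. Without the PND 145 arrays 9 of the 12 would have passed the filter on dim probes, so the others entered through the group in which they are high. Jchain, which joins IgA and IgM into polymers for secretion, stood at 4.50, 4.62 and 2.90 at PND 145 and at -3.67, -1.22 and -3.14 at PND 100. All PND 145 arrays were above all PND 100 arrays, with replicate 3 the lowest of its group. The difference was 6.68 ± 0.90 (adjusted p = 8.8e-05), a 103-fold higher level at PND 145, and the fit of these 2 groups alone called it too (adjusted p = 0.042).

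Mzb1, a chaperone of antibody assembly in the endoplasmic reticulum, stood at -1.61, -1.96 and -3.72 at PND 145, against -8.65, -8.32 and -8.96 at PND 100, where no array had it well above background. It was therefore at least 25.1-fold higher at PND 145 (adjusted p = 0.00012). Such bounds divide the brighter group's mean by a floor, which on each dim array is the lowest signal well above background, or the dim signal where that is higher. Tnfrsf17, the survival receptor of plasma cells that binds the cytokines Baff and April, stood at -0.74, -1.0 and -3.17 at PND 145, against -9.22, -7.23 and -7.60 at PND 100, and was at least 43.4-fold higher (adjusted p = 0.00029). Both genes showed the same order within PND 145, with replicates 1 and 2 above replicate 3.

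The regulators of the plasma cell state moved by less. Prdm1, the repressor that drives B cells into secretion, stood at -2.99, -3.12 and -3.65 at PND 145, against -5.91, -4.92 and -5.43 at PND 100 (difference 2.17 ± 0.38, adjusted p = 0.0015). Pim2, a survival kinase, rose by 1.34 ± 0.23 (adjusted p = 0.0012). Irf4, a transcription factor of plasma cells and activated T cells, rose by 2.47 (adjusted p = 0.039) and Cd27, a receptor of memory lymphocytes, by 3.79. Igha, the constant region of IgA, was well above background on 0 of 3 PND 100 arrays and was at least 7.56-fold higher at PND 145 (adjusted p = 0.016). Pigr, the epithelial receptor that carries polymeric IgA into secretions, had a difference of -1.10 (adjusted p = 0.19). Derl3, Eaf2 and Tnfrsf13b did not pass either, with differences between -1.01 and 0.33.

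Immunoglobulin light chain segments outside the list were among the largest differences. Igkvl15, a kappa chain segment by its name, stood at 1.52, 0.95 and -1.48 at PND 145, against -8.19, -7.20 and -7.68 at PND 100, where no array had it well above background. It was at least 169.8-fold higher at PND 145 (adjusted p = 0.0011). Igkv28 rose by 6.93 ± 1.42 and Iglc1, a lambda constant region, by 5.31 ± 1.04. Probes of immunoglobulin segments may bind related segments, so which segment was measured is uncertain. In a bulk sample, fewer cells of a type and less RNA per cell cannot be told apart.

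The plasma cell counts depended little on which array was left out, at 6 to 8 of 12. Between the 2 arrays on slide 4 the median difference of the list was 1.86, against 2.62 on slide 2. With the level of ventral products as a covariate, 6 members still rose, and in the fit of these 2 groups alone 3 did.

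**Figure D2:**
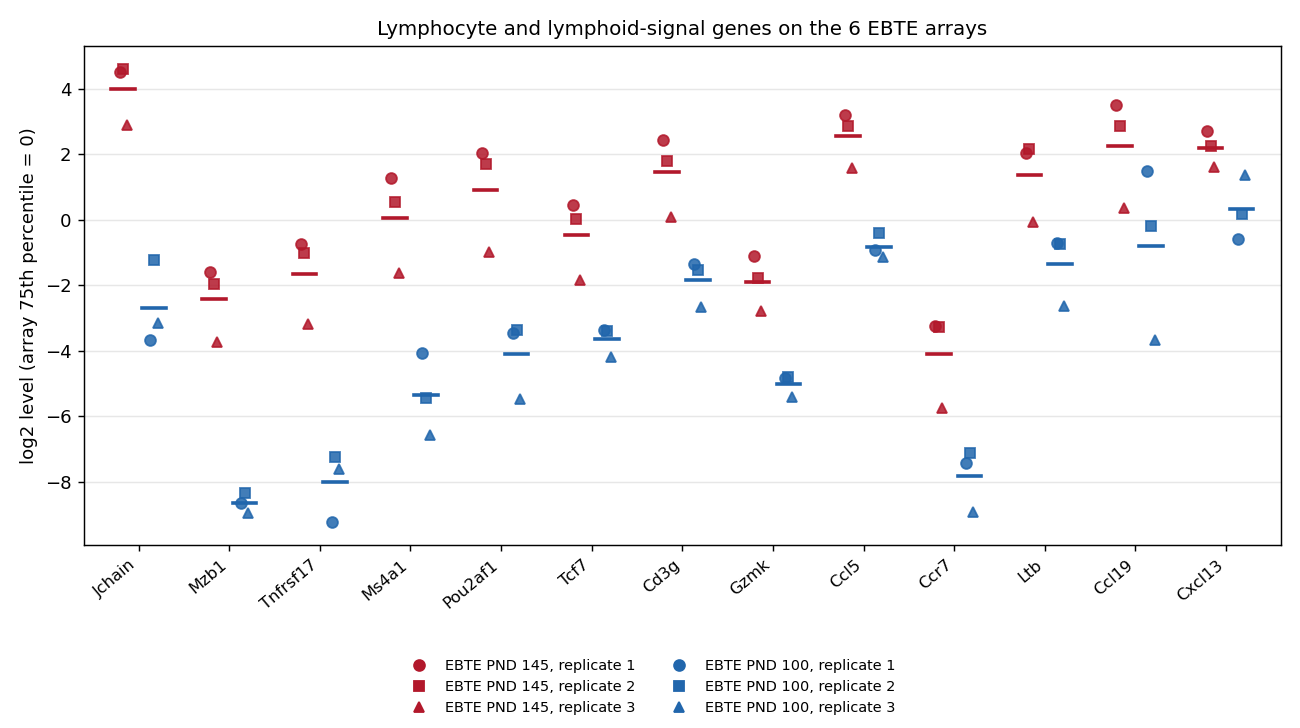
Log2 level of 13 lymphocyte and lymphoid-signal genes (horizontal axis; vertical axis, array 75th percentile = 0) on the 3 EBTE PND 145 arrays (red) and the 3 EBTE PND 100 arrays (blue), with group means as bars. The red points of Jchain, Mzb1 and Tnfrsf17 lie at least 4 log2 units above the blue ones, while those of Ccl19 overlap them.

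Of 16 measured B cell genes 11 rose, against 2.41% of all genes, and 0 fell, with a median difference of 3.87. In 12 of the 16 the 3 PND 145 arrays lay above the 3 PND 100 arrays, against 7.28% of all genes. Without the PND 145 arrays 13 of the 16 would have passed the filter on dim probes, so that 3 entered through the group in which they are high. The mean level of the list was -1.19, -1.57 and -3.18 at PND 145, against -5.19, -5.12 and -5.68 at PND 100. Replicate 3 of PND 145 thus stood between the other 2 arrays of its age and those of PND 100.

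Ms4a1, the membrane protein known as the target of rituximab, stood at 1.28, 0.56 and -1.64 at PND 145 and at -4.05, -5.44 and -6.58 at PND 100 (difference 5.42 ± 1.25, adjusted p = 0.014). The groups did not overlap. The call for Ms4a1 was lost without PND 145 replicate 1 or 2 or PND 100 replicate 3.

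Pou2af1, a coactivator of immunoglobulin transcription, stood at 2.03, 1.69 and -1.0 at PND 145, against -3.47, -3.36 and -5.46 at PND 100 (difference 5.00 ± 0.86, adjusted p = 0.0012). Fcrla, an intracellular Fc receptor-like protein of B cells, rose by 3.26 ± 0.52 (adjusted p = 0.00067). Both calls held in all 6 fits that left out an array. The signalling chain Cd79b rose by 5.41 ± 1.15, its partner Cd79a was at least 5.02-fold higher, the low-affinity IgE receptor Fcer2 rose by 5.30 ± 1.10 and the Baff receptor Tnfrsf13c by 3.82 ± 0.77. The complement receptor Cr2, not well above background at PND 100, was at least 4.3-fold higher (adjusted p = 0.0084), and the transcription factor Spib rose by 4.11 (adjusted p = 0.040). Pax5, the transcription factor that fixes B cell identity, had a difference of -0.07 (adjusted p = 0.95), and Cd22, an inhibitory receptor, one of -1.13 (adjusted p = 0.77).

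The number of B cell genes that rose was 4 without PND 145 replicate 2 and 5 without replicate 1, and it was 2 with ventral products as a covariate and 0 in the fit of these 2 groups alone. On slide 4, where the 2 arrays had similar ventral levels, the median difference was 2.45. The PND 100 array of that slide, replicate 3, was the lowest EBTE array for this list. On that pair the acute mediators differed by a median of 2.72, so it does not set the lymphoid lists apart.

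Of the 21 lymphoid-organising signals, 3 rose, against 2.41% of all genes, and 0 fell, with a median difference of 1.45. In 8 members the groups did not overlap in the higher direction, against 7.28% of all genes. Without the PND 145 arrays 20 of the 21 would have passed the filter on dim probes. Ccr7, the receptor that guides naive lymphocytes and dendritic cells along Ccl19 and Ccl21, stood at -3.24, -3.28 and -5.73 at PND 145, against -7.41, -7.11 and -8.93 at PND 100, where it was not well above background. It was at least 7.97-fold higher at PND 145 (adjusted p = 0.0025), a call held whichever array was left out. Ltb, which forms lymphotoxin on lymphocytes, stood at 2.03, 2.15 and -0.08 at PND 145, against -0.71, -0.72 and -2.64 at PND 100 (difference 2.73 ± 0.66, adjusted p = 0.020). Glycam1, a mucin-like ligand of L-selectin made by high endothelial venules, was well above background on 2 of 3 PND 145 arrays and on 0 of 3 PND 100 arrays, and was at least 6.24-fold higher (adjusted p = 0.025).

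The chemokines that place B and T cells did not pass. Cxcl13, the B cell attractant, stood at 2.72, 2.25 and 1.63 at PND 145, against -0.60, 0.17 and 1.38 at PND 100, without overlap (difference 1.88 ± 0.81, adjusted p = 0.23). Its receptor Cxcr5 differed by 2.19 ± 0.81 (adjusted p = 0.14). Ccl19 stood at 3.51, 2.86 and 0.36 at PND 145, against 1.48, -0.17 and -3.67 at PND 100 (difference 3.03 ± 1.08, adjusted p = 0.13), and the groups overlapped. Ccl21 differed by 0.04, and Madcam1, an addressin of mucosal venules, by -0.23. Il7r, the receptor of a lymphocyte survival cytokine, differed by 2.37 ± 0.70 (adjusted p = 0.056), and Ltbr, the lymphotoxin receptor of stromal cells, by -0.66 ± 0.20 (adjusted p = 0.074). Counts of this list ran from 1 without PND 145 replicate 1 or 2, or without PND 100 replicate 3, to 7 without PND 145 replicate 3. In the fit of these 2 groups alone the count was 0.

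T cell genes rose in 15 of 23 measured members, against 2.41% of all genes, and fell in 0, with a median difference of 2.91. The mean level of the list was -0.98, -1.15 and -2.72 at PND 145, against -3.60, -3.54 and -4.44 at PND 100. Tcf7, a transcription factor of naive and memory T cells, stood at 0.47, 0.02 and -1.83 at PND 145, against -3.37, -3.41 and -4.18 at PND 100, without overlap (difference 3.20 ± 0.50, adjusted p = 0.00048). Its call held whichever array was left out.

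Chains of the T cell receptor complex also rose. Cd3g stood at 2.45, 1.80 and 0.10 at PND 145, against -1.34, -1.53 and -2.66 at PND 100 (difference 3.29 ± 0.76, adjusted p = 0.014). Cd3e stood at -2.47, -2.77 and -4.59 at PND 145, against -6.13, -5.66 and -6.77 at PND 100 (difference 2.91 ± 0.82, adjusted p = 0.045). The PND 145 arrays lay above the PND 100 arrays in both, with replicate 3 the lowest of each age. The receptor-proximal kinase Zap70 rose by 2.70 ± 0.61, and the signalling adaptor Sh2d1a by 3.12 ± 0.69. The coreceptors that divide T cells into helper and cytotoxic cells did not pass: Cd4, which macrophages of the rat also carry, differed by 0.67 ± 0.31 (adjusted p = 0.26) and Cd8a by 1.30 ± 0.94 (adjusted p = 0.53). Foxp3, the transcription factor of regulatory T cells, differed by 0.34 ± 0.76 (adjusted p = 0.87).

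These T cell calls rested on few arrays: 1 of 23 members rose without PND 145 replicate 1, 1 without replicate 2, 3 without PND 100 replicate 3, and 17 without PND 145 replicate 3. With ventral products as a covariate 1 member rose, in the fit of these 2 groups alone 0 did, and on slide 4 the median difference was 2.09.

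Among 16 genes of T cell activation and checkpoints 5 rose, against 2.41% of all genes, and 0 fell, with a median difference of 1.91. Btla, an inhibitory receptor of B and T cells, rose by 4.33 ± 0.81 (adjusted p = 0.0026), Lag3, an inhibitory receptor of activated T cells, by 3.63 ± 0.71 (adjusted p = 0.0037) and the costimulatory receptor Tnfrsf4 by 2.00 ± 0.34 (adjusted p = 0.0012). These 3 calls held whichever array was left out. The interleukin receptor chain Il2rb rose by 2.46 ± 0.64. Ido1, which degrades tryptophan, was well above background on 2 of 3 PND 145 arrays and 0 of 3 PND 100 arrays, and was at least 1.75-fold higher (adjusted p = 0.030). Pdcd1, the checkpoint receptor of exhausted T cells, differed by 1.82 (adjusted p = 0.12). In the fit of these 2 groups alone 0 of the 16 rose. Without the PND 145 arrays 15 of the 16 would have passed the filter on dim probes.

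Genes of cytotoxic lymphocytes and their chemokines rose in 12 of 20 measured members, against 2.41% of all genes. Of the list 0 fell, and the median difference was 2.71. Of the 20, 18 would have passed the filter without the PND 145 arrays. Ccl5, a chemokine of activated T and NK cells, stood at 3.21, 2.86 and 1.58 at PND 145, against -0.92, -0.39 and -1.14 at PND 100 (difference 3.36 ± 0.60, adjusted p = 0.0020). Gzmk, a granule protease, stood at -1.11, -1.79 and -2.78 at PND 145, against -4.83, -4.80 and -5.40 at PND 100 (difference 3.12 ± 0.53, adjusted p = 0.0012). The groups did not overlap in either gene, and replicate 3 was again the lowest at PND 145.

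The pore-forming protein Prf1 rose by 3.22 ± 0.59, the granule membrane protein Nkg7 by 2.67 ± 0.43 and the transcription factor Eomes by 3.58 ± 0.68. Ifng, the cytokine interferon gamma, was well above background on 0 of 3 PND 100 arrays and was at least 1.61-fold higher at PND 145 (adjusted p = 0.013). The chemokines that it induces rose as well, Cxcl9 by 2.76, Cxcl10 by 2.95 and Cxcl11 by 4.69. Gzmb stood at -3.25, -3.55 and -4.55 at PND 145, against -4.04, -6.48 and -7.15 at PND 100, and overlapped (difference 2.11 ± 0.89, adjusted p = 0.22). From 9 to 14 members rose whichever EBTE array was left out, 6 rose with ventral products as a covariate, and 0 rose in the fit of these 2 groups alone.

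Interferon-induced genes were higher by a median of 2.26 at PND 145. Of 30 measured members 11 passed as higher, against 2.41% of all genes, and 0 as lower. In 25 of the 30 the PND 145 arrays lay wholly above the PND 100 arrays, against 7.28% of all genes. The mean level of the list was 0.94, 1.00 and -0.14 at PND 145, against -1.68, -1.07 and -2.08 at PND 100.

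Ifi44l, of the interferon-induced protein family, stood at -1.57, -1.66 and -3.20 at PND 145, against -5.80, -4.42 and -6.44 at PND 100 (difference 3.41 ± 0.75, adjusted p = 0.0099). Cmpk2, a mitochondrial nucleotide kinase, rose by 3.03 ± 0.66, Herc6, a ligase for the ubiquitin-like protein Isg15 in mice, by 3.25 ± 0.72 and Xaf1, a pro-apoptotic factor, by 2.29 ± 0.50. The antiviral enzyme Rsad2 rose by 3.15 (adjusted p = 0.046), the guanylate-binding protein Gbp5 by 2.51 and Parp14, an ADP-ribosyltransferase, by 1.69. Isg15 itself differed by 3.46 (adjusted p = 0.070). The count of called members was 2 without PND 145 replicate 1, 1 without replicate 2 and 18 without replicate 3. It was 1 with ventral products as a covariate and 0 in the fit of these 2 groups alone.

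Promoters of interferon-induced genes are shown because their members moved together and share a known element, the interferon-stimulated response element, searched as GAAA, any 2 bases and GAAA, on both strands of the 250 bases before each gene's start. RefSeq promoters of build GRCr8 were matched by symbol for 23 of the 30 measured members, and 16 of the 23 (69.6%) held the element, against 902 of 27457 promoters in the table (3.29%). The list was chosen as interferon-induced genes, so a high share follows from its membership and is no evidence about the change with age. Of the members that rose 9 had a promoter, and 5 of them (55.6%) held it, not more often than the measured members as a whole. Stretches of 120 bases around it follow, 5′ to 3′ on the strand of the gene, with the element in capitals, for Xaf1 at chr10:57415815-57415934 (plus strand), Ifi44l at chr2:243328593-243328712 (plus), Gbp5 at chr2:233910879-233910998 (plus), Parp14 at chr11:78408003-78408122 (plus) and Rsad2 at chr6:48788203-48788322 (minus). A match describes letters and is not evidence of binding.
Xaf1: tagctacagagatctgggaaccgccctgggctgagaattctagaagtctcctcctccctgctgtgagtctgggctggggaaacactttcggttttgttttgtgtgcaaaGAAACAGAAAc
Ifi44l: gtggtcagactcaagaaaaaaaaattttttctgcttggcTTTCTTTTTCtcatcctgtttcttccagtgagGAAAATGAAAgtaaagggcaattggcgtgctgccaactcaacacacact
Gbp5: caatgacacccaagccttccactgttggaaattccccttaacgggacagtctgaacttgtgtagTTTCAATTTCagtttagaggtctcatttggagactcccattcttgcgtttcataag
Parp14: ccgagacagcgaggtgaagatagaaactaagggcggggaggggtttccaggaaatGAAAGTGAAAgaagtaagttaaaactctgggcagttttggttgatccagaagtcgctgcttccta
Rsad2: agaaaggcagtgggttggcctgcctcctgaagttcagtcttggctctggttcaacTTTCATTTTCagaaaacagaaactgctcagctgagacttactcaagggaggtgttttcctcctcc

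Ifi44l held 2 matches and each of the other 4 held 1. Counted from the start of the gene, the match began at position -11 in Xaf1 and at -147 in Rsad2. The element was held by 1 of 11 neutrophil promoters and by 0 of 26 promoters of acute mediators. In lists with many rises it was held by 0 of 16 T cell, 0 of 8 B cell and 1 of 10 plasma cell promoters. It thus did not separate lists that rose from lists that did not.

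Presentation of antigen was higher in a few members. Of 11 genes of MHC class II presentation 2 rose, against 2.41% of all genes, with a median difference of 1.59. RT1-DOa was not well above background at PND 100 and was at least 4.62-fold higher at PND 145 (adjusted p = 0.012). Its partner RT1-DOb, with which it forms the modulator of peptide loading in B cells, rose by 2.47 ± 0.67 (adjusted p = 0.038), a call that ended with the replicate number as a block (adjusted p = 0.051). The invariant chain Cd74 stood at 4.67, 4.55 and 3.63 at PND 145, against 3.47, 2.76 and 1.84 at PND 100, without overlap (difference 1.59 ± 0.51, adjusted p = 0.086). Of 16 genes of MHC class I presentation 3 rose, against 2.41% of all genes. They were the class I gene RT1-CE5 (2.79 ± 0.58), the peptide transporter Tap1 (1.71 ± 0.44) and Nlrc5, the activator of class I transcription (2.15 ± 0.56). Probes of RT1 genes may bind related family members. With 1 array left out the count was 0 to 4 for class II (0 without PND 145 replicate 1 or 2 or PND 100 replicate 3) and 0 to 5 for class I (0 without PND 145 replicate 2). With ventral products as a covariate, or in the fit of these 2 groups alone, it was 0 for both. Without the PND 145 arrays 10 of the 11 class II genes would have passed the filter on dim probes. Of 10 dendritic cell genes 2 rose, against 2.41% of all genes. Ccl22, a chemokine of mature dendritic cells, rose by 3.58 ± 0.71 and Cd83, their maturation marker, by 2.82 ± 0.53.

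**Figure D3:**
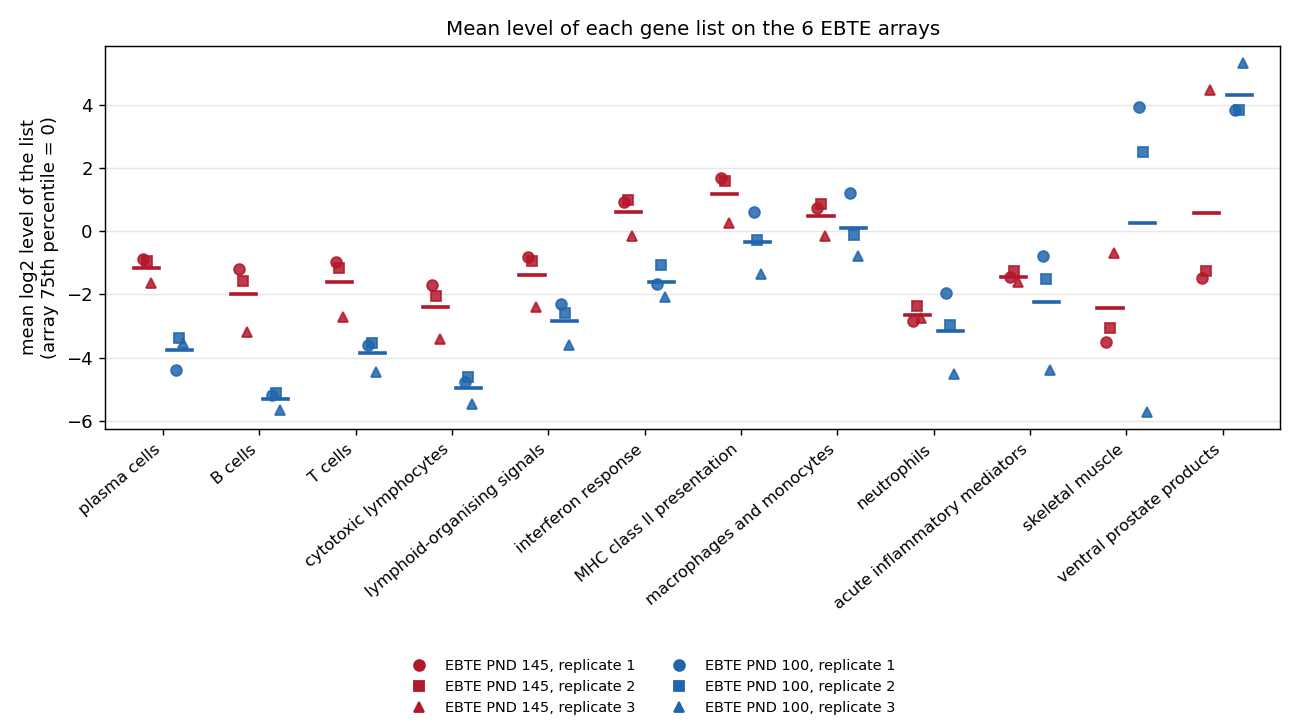
Mean log2 level of 12 gene lists (horizontal axis; vertical axis, array 75th percentile = 0) on each EBTE array, PND 145 in red and PND 100 in blue, with group means as bars. For B cells the PND 145 arrays lie between -3.18 and -1.19 and the PND 100 arrays between -5.68 and -5.12, while the neutrophil, acute, muscle and ventral lists overlap between the ages.

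Of 34 acute inflammatory mediators 1 rose, near the 2.41% of all genes, and 0 fell, near the 1.03% of all genes. The median difference was 1.06. Their mean level was -1.46, -1.24 and -1.61 at PND 145, against -0.79, -1.51 and -4.39 at PND 100. The PND 145 arrays were close to PND 100 replicates 1 and 2, and replicate 3 of PND 100 was far below the other 5. Within slides the median difference was 0.31 on slide 2 and 2.72 on slide 4, whose PND 100 array is replicate 3. Control arrays stood between -5.65 and -5.52 at PND 145 and between -5.64 and -4.24 at PND 100, below all EBTE arrays except PND 100 replicate 3.

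The neutrophil attractants followed that array. Cxcl2 stood at 1.84, 2.65 and 3.23 at PND 145, against 2.58, 2.40 and -2.97 at PND 100 (difference 1.91 ± 1.86, adjusted p = 0.66). Cxcl1 stood at -0.16, -0.14 and -0.83 at PND 145, against 0.12, -1.33 and -5.74 at PND 100 (difference 1.94 ± 1.70, adjusted p = 0.62). The ages overlapped in both genes, with PND 100 replicate 3 alone below.

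The cytokine Il1b stood at 1.75, 2.34 and 2.57 at PND 145, against 1.89, 2.17 and -1.21 at PND 100 (difference 1.27 ± 0.99, adjusted p = 0.56). Csf3, the growth factor of neutrophils, stood at -1.91, -1.50 and -1.90 at PND 145, against -0.23, -1.53 and -2.46 at PND 100 (difference -0.36 ± 0.50, adjusted p = 0.77). Il6 was well above background on 0 of 3 PND 145 arrays and on 2 of 3 PND 100 arrays, where it stood at -4.99, -6.68 and -9.18 (adjusted p = 0.13). Without PND 100 replicate 3, 2 mediators passed as lower at PND 145, Il6 (adjusted p = 0.019) and the soluble pattern receptor Ptx3 (-5.54, adjusted p = 0.0071).

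Ccl4, a chemokine of activated macrophages and T cells, was the member that rose. It stood at -3.43, -3.56 and -4.77 at PND 145, against -6.32, -7.28 and -7.48 at PND 100, without overlap (difference 3.10 ± 0.79, adjusted p = 0.026). Its relative Ccl3 stood at 1.38, 2.33 and 1.30 at PND 145 and at 0.07, 1.34 and -3.24 at PND 100, and overlapped (difference 2.28 ± 1.12, adjusted p = 0.30). The call for Ccl4 was lost without PND 145 replicate 1 or 2 or PND 100 replicate 3.

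Of 16 neutrophil genes 0 rose and 0 fell, near the 2.41% and 1.03% of all genes. The median difference was 0.31, with a range from -1.58 to 2.39. At PND 145 the list averaged -2.85, -2.36 and -2.74, against -1.94, -2.98 and -4.53 at PND 100, and control arrays lay between -7.03 and -6.54 at PND 145 and between -7.05 and -6.47 at PND 100. All 6 EBTE arrays thus lay above the control arrays of both ages. Within slides the median difference was 0.02 on slide 2 and 1.86 on slide 4, where the plasma cell list also had 1.86. S100a8, a subunit of calprotectin, stood at -2.13, -2.28 and -0.59 at PND 145, against 0.04, -1.41 and -2.73 at PND 100 (difference -0.30 ± 1.47, adjusted p = 0.94). Its partner S100a9 stood at -0.93, -0.40 and 0.55 at PND 145, against 1.11, -0.26 and -2.59 at PND 100 (difference 0.32 ± 1.53, adjusted p = 0.94). The signs of these 2 small differences turned when single arrays were left out.

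**Figure D4:**
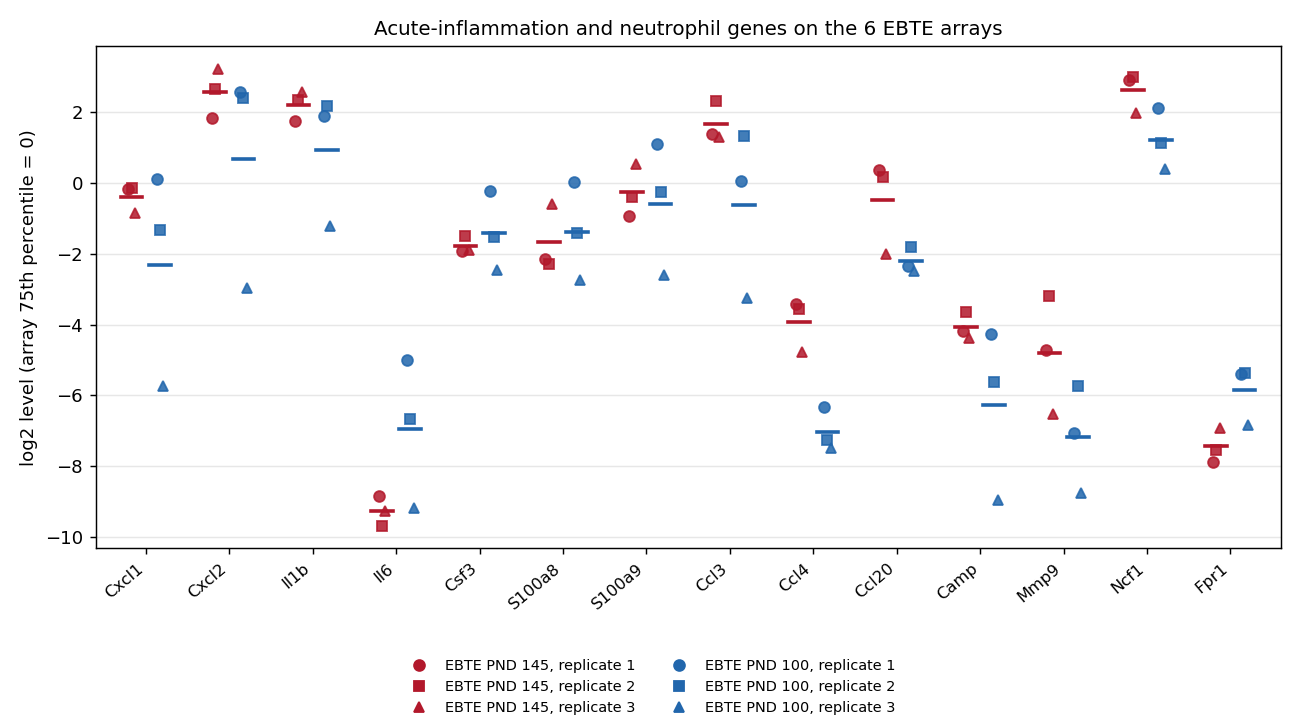
Log2 level of 14 acute-inflammation and neutrophil genes (horizontal axis; vertical axis, array 75th percentile = 0) on the EBTE PND 145 arrays (red) and the EBTE PND 100 arrays (blue), with group means as bars. PND 100 replicate 3 (triangle) is the lowest blue point in each of the 14 genes, at -5.74 for Cxcl1 and -2.97 for Cxcl2, and of these genes Ccl4 alone passed the test.

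Other innate cells showed no call. Of 21 macrophage and monocyte genes 0 rose, with a median difference of 0.49 and mean levels of 0.73, 0.86 and -0.14 at PND 145, against 1.23, -0.12 and -0.77 at PND 100. Siglec1, a sialic acid receptor of tissue macrophages, differed by 1.78 ± 0.69 (adjusted p = 0.17), and C1qa, a chain of the first complement component made by macrophages, by 0.96 ± 0.48 (adjusted p = 0.31). Of 19 complement genes 0 passed (median 0.42), with C4b at 1.82 ± 0.68 (adjusted p = 0.15). Of 15 mast cell and eosinophil genes 0 passed (median -0.27), and without PND 100 replicate 3 the histamine-making enzyme Hdc was lower by -3.96 (adjusted p = 0.0032).

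Epithelial and stromal lists held few calls. Of 21 luminal epithelial genes 2 rose, against 2.41% of all genes. With 1 array left out 0 to 4 did (0 without PND 145 replicate 2 or PND 100 replicate 1). Elf3, an epithelial transcription factor, stood at 3.14, 3.83 and 3.76 at PND 145, against 1.17, 2.97 and 1.05 at PND 100, without overlap (difference 1.84 ± 0.45, adjusted p = 0.020), a call lost without PND 145 replicate 2 or PND 100 replicate 1 or 3. The androgen-responsive protease Tmprss2 stood at 2.02, 2.97 and 3.33 at PND 145, against -1.01, 1.89 and 1.74 at PND 100, without overlap (difference 1.90 ± 0.54, adjusted p = 0.047), and its call ended with the replicate number as a block (adjusted p = 0.052) and with slide as a block (adjusted p = 0.092). It was also the 1 of 16 androgen-responsive genes that rose, against 2.41% of all genes. Pbsn, the androgen-driven secretory protein probasin, differed by 0.04 ± 0.36 (adjusted p = 0.97).

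Of 36 fibroblast and matrix genes 1 rose, near the 2.41% of all genes, the proteoglycan Ogn by 1.05 ± 0.29 (adjusted p = 0.043), which ended with the replicate number (adjusted p = 0.058) or slide (adjusted p = 0.064) as a block. Without PND 100 replicate 3, 4 matrix genes (Tnc, Lox, Eln and Vcan) were called as lower at PND 145. The 24 basal and squamous genes had 0 calls, with Krt5, a keratin of basal cells, at -0.09 ± 0.44 (adjusted p = 0.95). Smooth muscle and endothelial genes also had 0 calls.

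The receptors of estrogen and progesterone did not pass. The estrogen receptors Esr1 and Esr2 differed by 0.04 ± 0.47 and 0.23 ± 0.68 (adjusted p = 0.98 and 0.91), signs that turned under several settings, and Pgr, the progesterone receptor that estrogen induces, by 1.28 ± 0.69 (adjusted p = 0.36). Of 20 estrogen and progesterone receptors and targets 0 passed.

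Genes of cell division, protein folding and sterol synthesis had lower medians without calls. The median was -0.49 over 37 cell cycle genes, -0.72 over 24 genes of the unfolded protein response and -0.72 over 25 genes of cholesterol and fatty acid synthesis, and 0 passed in each. Mki67, a marker of dividing cells, differed by -0.39 ± 0.58 (adjusted p = 0.79). Hsp90b1, a chaperone of the endoplasmic reticulum, stood at 2.46, 2.82 and 2.18 at PND 145, against 3.06, 3.52 and 3.95 at PND 100, without overlap (difference -1.02 ± 0.31, adjusted p = 0.062). Without PND 100 replicate 1, 6 of the 24 folding genes were called as lower.

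Genes of striated muscle were among the largest falls that the rule names. Trim54, a ligase of the sarcomere, stood at -6.83, -6.42 and -3.86 at PND 145, against 1.15, -1.11 and -2.88 at PND 100 (difference -4.76 ± 1.32, adjusted p = 0.042). Myl4 and Myom3 (sarcomere proteins) fell by 3.04 and 2.42, Tnnc1, the slow troponin C, by 2.40, and Txlnb, a muscle taxilin, by 3.32. Ankrd2, a stretch-responsive muscle protein, was not well above background at PND 145 and was at least 23.9-fold lower there (adjusted p = 0.0039). The calls for Trim54, Myl4, Myom3 and Txlnb ended with slide as a block (adjusted p = 0.069, 0.074, 0.051 and 0.066). In the skeletal muscle list itself 0 of 15 fell (5 without PND 100 replicate 3): Myh1, a fast myosin, stood at -5.93, -6.26 and -2.51 at PND 145, against 3.64, 1.60 and -5.92 at PND 100, and overlapped (adjusted p = 0.25). The list was lower by a median of -6.38 on slide 2 and higher by 4.60 on slide 4. With the level of that list as a covariate, added after seeing the data, the 6 falls named here were called (adjusted p between 0.0052 and 0.022). That covariate raised all calls from 801 to 1548, and the part of muscle content in these falls was not tested.

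Cd209f, Tmem52 and Coq8a were lower at PND 145 without overlap, a condition for the largest falls that the rule names. That choice alone makes them lower on both slides, and the part of muscle content was not tested. Cd209f, a lectin of the family of pathogen receptors on macrophages and dendritic cells, stood at -4.92, -4.62 and -4.83 at PND 145, against 0.46, -0.26 and -1.29 at PND 100 (difference -4.43 ± 0.80, adjusted p = 0.0021). The groups were more than 3 log2 units apart, the call held whichever array was left out, and the fit of these 2 groups alone made it as well (adjusted p = 0.042). Tmem52, a membrane protein, stood at -5.95, -5.65 and -3.56 at PND 145, against 1.27, -1.30 and -0.69 at PND 100 (difference -4.81 ± 0.66, adjusted p = 0.00011). Coq8a, which regulates coenzyme Q synthesis, stood at -2.85, -2.59 and -1.64 at PND 145, against 1.67, -0.59 and 0.10 at PND 100 (difference -2.75 ± 0.44, adjusted p = 0.00063). Both calls held whichever array was left out. The kinase Camkk2 fell by 2.05 ± 0.54 and the muscle-associated gene Myadml2 by 2.48 ± 0.56. LOC102551693 and LOC108351280, which carry no further annotation here, fell by 2.54 and 2.45. The bounds of Myh2, a myosin, and LOC102546359 were at least 21.3-fold and 15.5-fold lower, but neither passed (adjusted p = 0.10 and 0.17).

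To see whether the change with age was shared by other animals, the difference between PND 145 and PND 100 in EBTE prostates was set against the same difference in each other treatment. Of these, T+E prostates had 10 genes past the test between the ages (0.0429%), 5 higher (0.0215%) and 5 lower (0.0215%). EB prostates had 174 (0.747%), 43 higher (0.185%) and 131 lower (0.562%) at PND 145, and controls had 0 (573 genes, 2.46%, at an unadjusted p under 0.05 in limma). The EBTE change differed from the control change in 69 genes (0.296%), upward in 58 (0.249%) and downward in 11 (0.0472%). From the T+E change it differed in 48 (0.206%), upward in 41 (0.176%) and downward in 7 (0.03%), and from the EB change in 1905 (8.17%), upward in 1110 (4.76%) and downward in 795 (3.41%). These 3 counts share the EBTE arrays and are not independent of each other or of the calls above.

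Against controls, 4 of 12 plasma cell genes (Jchain, Mzb1, Tnfrsf17 and Prdm1) and 4 of 20 cytotoxic genes (Nkg7, Gzmk, Prf1 and Gzmm) changed more in EBTE, against 0.249% of all genes. Jchain changed by 6.97 ± 1.28 more in EBTE than in controls (adjusted p = 0.013), where its means were -5.30 at PND 145 and -5.01 at PND 100. Tcf7 changed by 3.54 ± 0.70 more and Cyp17a1, well above background on 1 of 3 EBTE PND 100 arrays, by 7.43 ± 1.43. Mzb1 and Tnfrsf17 were well above background on 3 of 3 EBTE arrays at PND 145, against 0 of 3 EBTE arrays at PND 100 and 0 control arrays of either age, so their calls (adjusted p = 0.012 and 0.034) carry no exact size. In the other adult groups each was well above background only on 1 of 3 EB arrays at PND 100. Among adult arrays both thus met the filter on dim probes mainly through EBTE PND 145, the group in which they are high. Vpreb3, a component of the early B cell receptor, changed by 4.24 ± 0.80 more, a size in part at background. It was well above background on 1 of 3 EBTE arrays at PND 100, 1 of 3 control arrays at PND 145 and 2 of 3 at PND 100. Of B cell genes 2 of 16 and of T cell genes 1 of 23 passed this test, and of interferon-induced, acute and neutrophil genes 0.

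Against T+E alone, 3 of 12 plasma cell genes passed upward, against 0.176% of all genes, and 0 of 16 B cell, 23 T cell or 30 interferon genes passed. Jchain changed by 6.14 ± 1.28 more in EBTE (adjusted p = 0.041), and Mzb1, not well above background in T+E prostates of either age, was called as well (adjusted p = 0.029). Both were lost with the replicate number as a block (adjusted p = 0.069 and 0.055), a block with which 16 genes passed. Ell3, a transcription elongation factor, changed by 3.97 ± 0.79 more, and it also rose within EBTE (2.91 ± 0.56, adjusted p = 0.0031), as did Ido1. Ido1 and the splicing factor Srsf12 were called too (adjusted p = 0.041 and 0.027), but both were well above background on 0 of 3 EBTE PND 100 arrays and 0 of 3 T+E PND 145 arrays, so no size is given. All 3 were lost with that block (adjusted p = 0.066, 0.055 and 0.055). Akr1b7, an aldo-keto reductase, changed less in EBTE (adjusted p = 0.0096). It was well above background on 2 of 3 EBTE arrays at PND 145 and on 0 of 3 at PND 100, against 3 of 3 T+E arrays at PND 145 and 1 of 3 at PND 100.

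Against EB alone, 14 of 16 B cell, 16 of 23 T cell and 8 of 12 plasma cell genes passed upward, against 4.76% of all genes. However, 1 EB array of PND 100 bears on these counts. EB replicate 3 at PND 100 had B cell genes at a mean of -2.23, against -6.13 and -5.04 on replicates 1 and 2, so that EB prostates as a group were lower at PND 145. Jchain changed by 10.75 ± 1.24 more in EBTE than in EB, Tcf7 by 5.18 ± 0.68, Prdm1 by 3.72 ± 0.52 and Pltp, the phospholipid transfer protein, by 3.68 ± 0.50. Mzb1 and Tnfrsf17 were called too, with 0 of 4 EB arrays at PND 145 and 1 of 3 at PND 100 well above background. Without that EB array 570 genes passed in place of 1905.

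**Figure D5:**
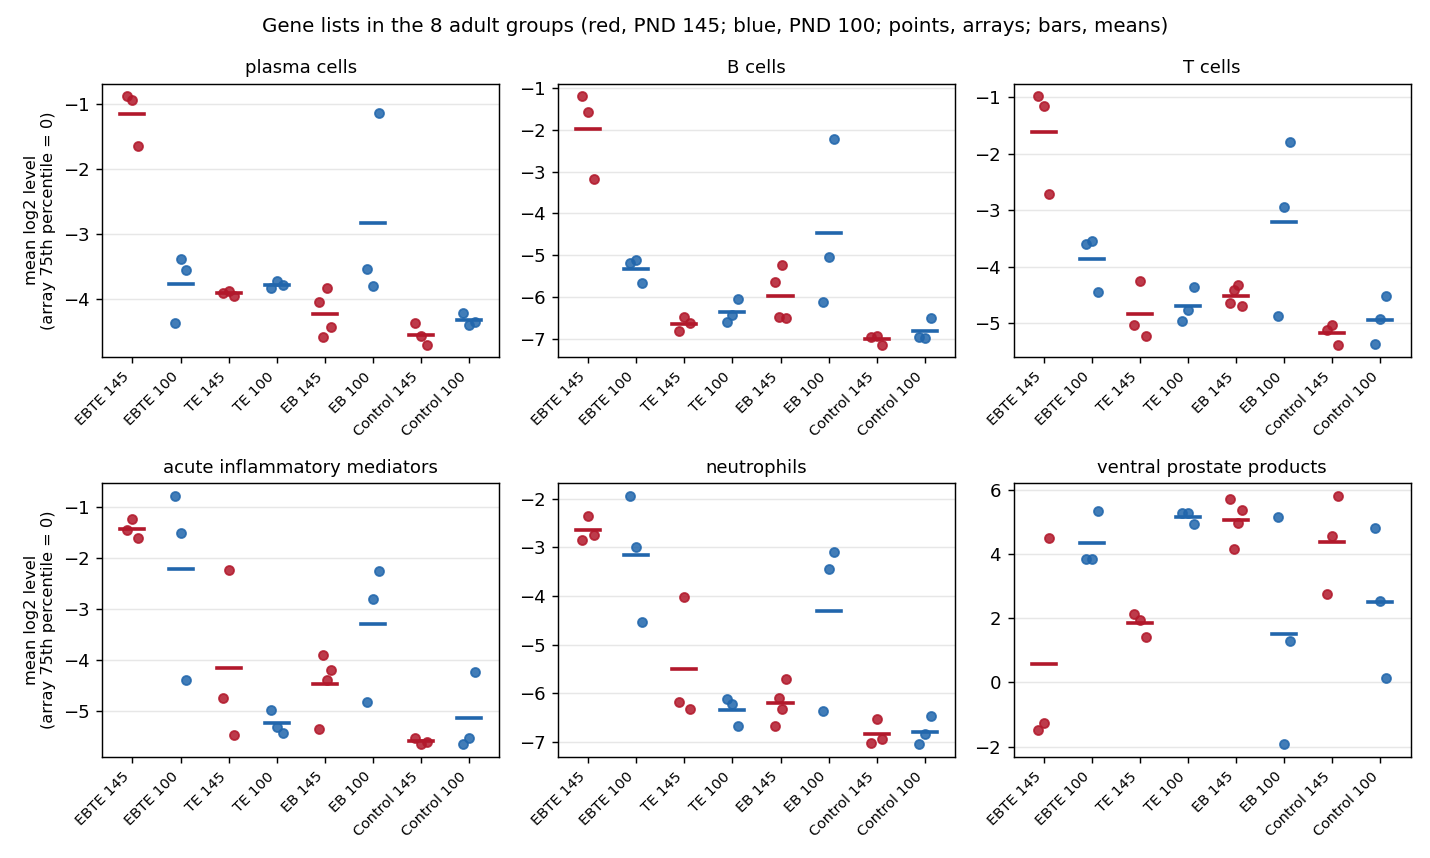
Mean log2 level of 6 gene lists (panels; vertical axis, array 75th percentile = 0) on each array of the 8 adult groups (horizontal axis), PND 145 in red and PND 100 in blue, with group means as bars. In the plasma and B cell panels the EBTE PND 145 arrays are the highest apart from EB PND 100 replicate 3 (B cells -2.23), and in the neutrophil and acute panels EBTE PND 100 replicate 3 stands lowest of the 6 EBTE arrays (-4.53 and -4.39), below EB PND 100 replicates 2 and 3.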

How the data were processed

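Per the labels' protocols, total RNA (500 ng, integrity number of at least 8) was labelled with Cy3 and hybridised to single-colour Agilent arrays. Agilent Feature Extraction 12.0.0.7 read the images, per the file headers, and the deposited spot values are linear intensities with the background subtracted and no scaling between arrays. A second table of intensities deposited by the authors covers the same arrays on a linear, uncentred scale, with 75th percentiles between 619.4 and 619.5. The sources used here do not say how it was made.

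The log2 processed signal was taken relative to the log2 75th percentile of its array. Spots called outliers (431 to 969 per EBTE array) were dropped, and repeated spots of a probe were averaged. Of 45598 probes, 24470 were named by accession, 6445 by symbol and 322 by synonym in a RefSeq gene table, 4896 kept the name in the files and 9465 had none. Probes had to be well above background on 3 or more of the 33 arrays (30559 did), and the brightest stood for its gene, giving 23304 genes, 16620 with a symbol. In 13 genes fewer than 6 EBTE values remained.

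With limma 3.58.1 (R 4.3.3, trended and robust variance) a mean was fitted for each of the 10 groups, with Benjamini-Hochberg adjustment over all genes at 0.05. Standard errors are from that fit. Slides 2 and 4 each held 1 EBTE array of each age. Same-numbered replicates deviated together (correlations 0.341, 0.12 and 0.333), although PND 145 replicate 2 and PND 100 replicate 1 reached 0.101. The labels name no pairing. The main fit was unpaired, without any block, and the replicate number was a block in an alternative fit only. Named genes were the 12 largest rises and falls among calls without overlap, the 3 largest bounds each way, up to 5 members of each list with the smallest p, a fixed set of markers and receptors, and the leading genes of the 3 differences of age changes. A few further members were named for their roles after their values were seen. Some genes that this rule takes in are not reported here. The members, the gene lists and this rule were chosen with earlier results of these data known, and lists were given no test of their own. Alternatives changed the background correction (normexp, offset 50), the scaling (quantile), the filter (none, or 17 arrays), the blocks (slide, replicate number), the samples (only the groups compared, or 1 array fewer), the source (the authors' table), the probes (mean of all) and the calls (array weights, a 2-fold minimum). Covariates for ventral products and skeletal muscle genes were added after seeing the data. The fit was tested on simulated data. Versions 1.17.8 of data.table, Python 3.11.15, pandas 2.3.3 and matplotlib 3.10.9 were used.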

Additional observations from a re-analysis of the deposited data

Results flagged for a closer look

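The change between PND 145 and PND 100 in EBTE prostates differed from that in controls in 69 genes, from that in EB prostates in 1905 and from that in T+E prostates in 48, by limma's test of the difference itself (adjusted p under 0.05).

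Against controls the difference of changes was 7.43 on the log2 scale for Cyp17a1, 6.97 for Jchain, 6.85 for Mzb1, 4.24 for Vpreb3 and 3.54 for Tcf7. In each of these genes the 3 EBTE PND 145 arrays lay above the 3 EBTE PND 100 arrays, and the mean difference between the ages in controls was between -0.93 and -0.29.

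Against EB prostates the difference of changes was 10.75 for Jchain, 9.49 for Tnfrsf17, 9.24 for Mzb1, 5.18 for Tcf7, 3.72 for Prdm1 and 3.68 for Pltp. EB PND 100 replicate 3 carried high lymphocyte levels (a B cell mean of -2.23), and 570 genes passed without it.

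Against T+E prostates the difference of changes was 6.27 for Mzb1, 6.14 for Jchain, 4.80 for Ido1, 4.53 for Srsf12, 3.97 for Ell3 and -4.35 for Akr1b7. Within EBTE prostates alone Srsf12 and Akr1b7 did not pass (adjusted p = 0.46 and 0.13). Mzb1, Tnfrsf17, Ido1, Srsf12 and Akr1b7 were well above background on 0 of 3 EBTE PND 100 arrays, so their values here are differences of fitted levels, in part at background, and not folds. The same holds for Cyp17a1 and Vpreb3, well above background on 1 of 3 of those arrays.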

How the results depend on the processing

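Of 78 called genes that were followed, 0 changed sign under any setting. Their calls numbered 78 with the authors' deposited table or with skeletal muscle genes as a covariate, 76 with quantile scaling, 75 with the replicate block or the mean of all probes, 72 with normexp, 70 with no filter or array weights, 69 with the slide block, 31 with ventral products as a covariate, 34 to 75 with 1 array left out and 5 in a fit of these 2 groups alone. The replicate block ended the calls of Ogn, RT1-DOb and Tmprss2 and no other of them. The cause of the moves below was not tested. EBTE PND 145 vs EBTE PND 100 gave 458 calls with a filter of 17 arrays (286 higher), 3095 with array weights (1337 higher, 1758 lower), 224 with ventral products as a covariate (178 higher, 46 lower), 1548 with skeletal muscle genes as a covariate (900 higher, 648 lower) and 43 with only these groups (41 higher, 2 lower). Leaving out 1 array gave 209 to 1357 calls, 177 to 891 higher and 32 to 466 lower. The difference from the control change (69) was 136 with quantile scaling, 2 with the filter of 17 arrays, 33 with the slide block, 44 with the replicate block, 1432 with array weights, 7 with the ventral covariate and 12 to 288 with 1 array left out. The difference from the EB change (1905) was 5043 with array weights, 195 with the ventral and 4042 with the muscle covariate, 4 with only these groups and 570 to 3550 with 1 array left out. The difference from the T+E change (48) was 0 with the filter of 17 arrays, 25 with the slide block, 16 with the replicate block, 2542 with array weights, 25 with the muscle covariate and 10 to 196 with 1 array left out. Genes that reversed had not been called. With normexp, Esr1 was at -0.24, Esr2 at -0.26, Foxp3 at -0.081 and Srsf12 at -0.064. With quantile scaling Esr1 was at -0.076, and with the slide block Esr1 at -0.0096 and Pbsn at -0.0051. With array weights Esr1 was at -0.44, Esr2 at -0.53, Foxp3 at -1.33, Krt8 at -0.18, Mki67 at 0.082, Pbsn at -0.76 and S100a9 at -0.14. With a covariate, Esr2 was at -0.18, Krt8 at -0.060 and S100a8 at 0.11 (muscle) and S100a9 at -1.15 (ventral). With 1 array left out, the range was -0.89 to 0.22 for Csf3, -0.23 to 0.22 for Esr1, -0.98 to 1.20 for Esr2, -0.45 to 1.07 for Foxp3, -0.91 to 0.36 for Krt5, -1.08 to 1.52 for Krt8, -0.28 to 0.54 for Pbsn, -0.98 to 0.40 for S100a8 and -0.68 to 1.17 for S100a9. Normexp moved the median of all genes to -0.19 and no filter to -0.24. With 3 arrays a group and genes near background, folds of dim genes are bounds.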

Other observations

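Alpha-defensins are antimicrobial peptides stored in granules of rat neutrophils and gut epithelium. They were looked at after the value of Np4 was seen. Np4 stood at -2.21, -1.30 and -1.66 at PND 145, against -9.45, -9.30 and -7.98 at PND 100, and was at least 40.9-fold higher (adjusted p = 0.0024, limma). Defa5 stood at -2.48, -1.95 and -1.77 at PND 145, against -9.28, -9.08 and -8.87 at PND 100, and was at least 32.2-fold higher (adjusted p = 0.0012). RatNP-3b rose by 5.05 ± 1.29 (adjusted p = 0.026). The 3 EBTE PND 145 arrays lay above the 3 PND 100 arrays in each of these genes, and unlike in the lymphocyte lists replicate 3 of PND 145 was not the lowest. Outside EBTE PND 145, Defa5 was well above background on 1 of 30 arrays and Np4 and RatNP-3b on 3 of 30 each. Among these arrays EB PND 100 replicate 3 stood above all EBTE PND 145 arrays, at 0.17 for Defa5, 0.40 for Np4 and -0.79 for RatNP-3b. Of the other 6 alpha-defensins measured, Defa10 differed by 3.53 (adjusted p = 0.060), and 0 of the 6 passed. Defa10 was well above background on 2 of the 30 other arrays. Defa5 and Defa10 thus passed the filter on dim probes only through EBTE PND 145, the group in which they are high. Defa7 and Defa11 were well above background on 3 of 3 PND 145 arrays and 0 of 3 PND 100 arrays, and were at least 2.33-fold and 1.58-fold higher (adjusted p = 0.19 and 0.31). Over the same arrays 0 of 16 neutrophil genes rose, near the 2.41% of all genes, and the defensins were not tested against that list. The sequences of this family are close, so 1 transcript may have bound several of the probes.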
